A study of Mus musculus with 10 samples.

Results

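*Ins1*, *Ins2* and *Iapp* encode the peptide hormones that pancreatic beta cells store and release. These 3 genes, of 28753 listed over all matrices, were chosen by name and followed through the single-cell libraries of the embryonic mouse pancreas. The mouse has a pair of insulin genes: *Ins2* resembles the single insulin gene of other mammals, and *Ins1* is a retrotransposed copy of it in rodents. Both are translated into preproinsulins that are cut to mature insulin, which lowers blood glucose. *Iapp* encodes amylin, a peptide co-stored with insulin in beta cell granules and made at lower levels by other islet cells. In the embryo, endocrine cells arise from progenitors that switch on *Neurog3* (Ngn3), pass through a stage marked by the transcription factor *Fev*, and then make a hormone. Early glucagon-producing alpha cells appear before most beta cells do.

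Single cells were captured by 10x Genomics droplets in 8 independent libraries, and each library held the pooled pancreata of a stage. The Swiss Webster libraries of the first kit version (v1), made from all live cells, covered E14.5 as batch 1 and, in a batch 2 collected on another day, E12.5, E14.5 and E17.5 as separate pools. Those of the second version (v2), made from live cells negative for the mesenchymal surface marker CD140a, covered E12.5, E14.5 and E17.5, the last loaded in 2 wells that were summed as technical replicates. The v2 library of E14.5 Fev-Cre;ROSA26mTmG pancreata held GFP+ cells, in which Cre expressed from *Fev* regulatory sequences had recombined the reporter, mixed with TdTomato+/GFP− cells of the same pancreata. The labels name no treatment for any group. Pools hide differences between embryos, so a library was the unit of every test.

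Total counts ran from 15671934 to 127151679 UMIs (molecules tagged by unique molecular identifiers) per library or well, and kept cells held a median of 2952 to 11780 UMIs. Cells were grouped by marker genes without *Ins1*, *Ins2*, *Iapp* or *Gcg*, and groups carry the name of their markers with "-like". Hemoglobin genes took up to 60.92% of the UMIs (v1 E17.5). Pairs of libraries of a kit shared 10 to 155 cell barcodes, and the E17.5 wells shared 74. Beta-like cells numbered 61 and 74 in the v1 E14.5 batches, 79 at v1 E17.5, 191 at v2 E14.5, 370 in Fev-Cre and 710 at v2 E17.5. No cluster took the beta-like name at E12.5 in either kit. In 1 beta-like cluster of v2 E17.5, with 81 cells, genes of the cell cycle (*Top2a*, *Cdk1*, *Ube2c*) led, and several of its cells were rich in *Gcg*. *Gcg* in beta-like cells was 28.4 to 310 CPM in 4 libraries, but 1842 CPM in v1 E14.5 batch 2 and 1578 CPM at v2 E17.5. In v1 E14.5 batch 2 nearly all of it came from 1 cell that also held insulin, without which *Gcg* was 86.7 CPM; the part of *Gcg* in the beta-like results of v2 E17.5 was not tested. Levels, pooled from all cells of a class in a library, are given as percent of UMIs or as CPM (the counts-per-million scale). They count molecules by their 3′ ends, so gene length does not enter.

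The insulin genes share most of their coding sequence, which bears on whether their reads can be told apart. *Ins1* lies on chr19:52264297-52265476 (+ strand), *Ins2* on chr7:142678656-142743381 (− strand, a span that includes long transcripts) and *Iapp* on chr6:142298423-142303961 (+ strand), all on GRCm38. The last 90 coding bases before the stop codon, which end the A chain of insulin, differed at 4 bases between the genes (95.6% identity). Capitals mark the bases that differ.
Ins1: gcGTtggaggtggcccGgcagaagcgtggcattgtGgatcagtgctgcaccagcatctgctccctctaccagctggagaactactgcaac
Ins2: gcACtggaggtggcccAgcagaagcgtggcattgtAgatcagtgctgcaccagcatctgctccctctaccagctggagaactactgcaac
Of the 965 stretches of 98 bases, the length of the reads, in the *Ins1* transcript, 0 occurred whole in the *Ins2* transcript. The longest shared stretch was 56 bases, and 22 bases beyond the coding sequence. Only 57 bases of the *Ins2* transcript follow its coding sequence (529 for *Ins1*), so a read of 98 bases from *Ins2* always reaches into the coding part. Where reads fell in the transcripts was not examined. *Ins1* and *Iapp* shared no stretch longer than 10 bases.

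Over 98 sums of a class in a library, log levels of *Ins1* followed those of *Ins2* (Pearson's r 0.97) and of *Iapp* (r 0.84); sums of a library share its depth and free RNA, so these are descriptions. The 250 bases upstream of the RefSeq start sites (GRCm38.p6) are shown for the pair of members with an entry. The sequences span chr19:52264047-52264296 for *Ins1* and chr6:142298175-142298424 for *Iapp*, both on the + strand. Capitals mark the letters TAAT on either strand (ATTA on the opposite one), the core of sites known to bind homeodomain factors such as Pdx1, and CATCTG, the E box of insulin genes known to bind Neurod1 with its partner; no match of one overlapped the other.
Ins1 promoter: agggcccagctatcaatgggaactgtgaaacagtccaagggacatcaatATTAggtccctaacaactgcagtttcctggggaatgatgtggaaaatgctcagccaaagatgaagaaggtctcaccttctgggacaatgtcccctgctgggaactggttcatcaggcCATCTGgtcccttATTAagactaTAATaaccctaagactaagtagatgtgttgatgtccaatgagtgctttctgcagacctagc
Iapp promoter: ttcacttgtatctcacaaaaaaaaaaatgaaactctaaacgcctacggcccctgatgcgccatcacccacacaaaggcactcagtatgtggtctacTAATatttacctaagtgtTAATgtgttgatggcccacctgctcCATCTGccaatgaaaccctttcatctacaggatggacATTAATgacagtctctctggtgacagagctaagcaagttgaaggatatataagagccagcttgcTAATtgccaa
*Ins1* held 3 matches to TAAT and 1 to CATCTG, and *Iapp* held 5, of which a pair overlapped on opposite strands (ATTAAT), and 1. Among the 32851 promoters searched in windows of the same length, 54.9% held TAAT and 14.4% held CATCTG. A match describes these letters only. The *Ins2* promoter was not used here.

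In the pooled UMIs of beta-like cells the insulin genes took a large part, and *Ins2* exceeded *Ins1* in every library. Single cells differed widely: the median beta-like cell held 0.397% insulin in v1 E14.5 batch 2 and 38.3% at v2 E17.5, with the other libraries between. *Ins2* took 7.62% and 3.40% of UMIs in the v1 E14.5 batches and 15.9% at v1 E17.5. The v2 values were 15.4% at E14.5, 6.58% in Fev-Cre and 25.0% at E17.5. Both E17.5 libraries were above all 4 at E14.5, although v2 E14.5 came close to v1 E17.5.
*Ins1* took 1.60%, 0.796%, 3.74% and 2.40% of UMIs in the E14.5 libraries (v1 batch 1, v1 batch 2, v2 and Fev-Cre). At E17.5 it took 4.43% with v1 and 14.7% with v2, so both E17.5 libraries were above all 4 at E14.5. *Iapp* was flatter. Its E14.5 values in the same order were 1.41%, 1.23%, 1.26% and 2.35%, and its E17.5 values were 2.57% and 3.18%, also without overlap between stages.

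**Figure D1:**
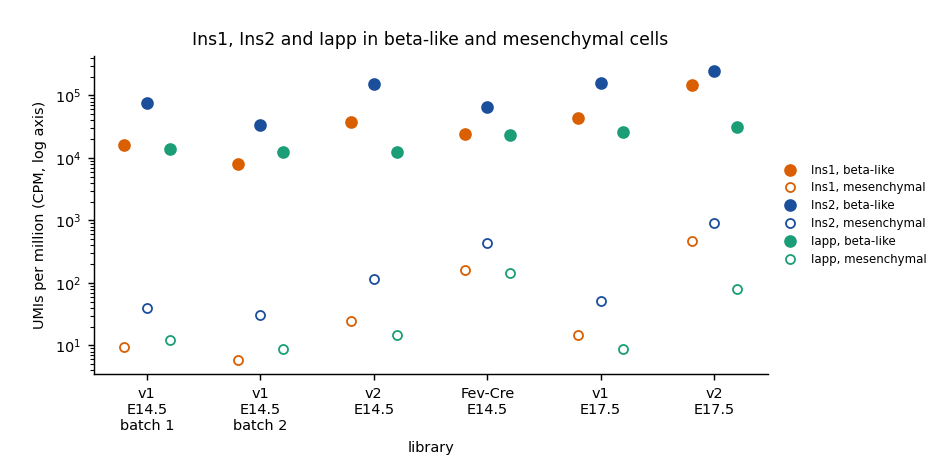
CPM (log axis) of *Ins1*, *Ins2* and *Iapp* in beta-like cells (filled) and in mesenchymal cells of the same library (open), 1 point per gene and library. Every beta-like point lies at least 149.9-fold above the mesenchymal point of its gene and library, and among beta-like points those of E17.5 were above those of E14.5 for each gene.

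To ask whether the pooled level of the members in beta-like cells rose between E14.5 and E17.5, UMI sums of the 6 libraries were compared. The test was edgeR's quasi-likelihood test, with kit as a covariate. Cells with insulin above 1% of UMIs made up 63.93%, 33.78%, 87.96% and 89.19% of beta-like cells at E14.5 (v1 batch 1, v1 batch 2, v2, Fev-Cre). At E17.5 they made up 79.75% (v1) and 92.68% (v2). The part of this make-up in the stage change was not tested. *Ins1* was higher at E17.5 by 2.60 on the log2 scale (SE 0.45, adjusted p = 0.0285, Benjamini-Hochberg over 8010 genes), higher in both E17.5 libraries than in any of the 4 at E14.5. At the thresholds used (adjusted p under 0.05 and at least 2-fold), 36 of the 8010 genes (0.449%) were called higher and 9 (0.112%) lower. *Ins2* was 1.86 higher (SE 0.52, adjusted p = 0.192) and *Iapp* 1.44 higher (SE 0.36, adjusted p = 0.134), and neither passed. Since v1 E17.5 belonged to batch 2, the comparison was repeated without v1 E14.5 batch 1, which leaves the v1 libraries of a single batch: *Ins1* was 2.87 higher (adjusted p = 0.0169, edgeR), and *Ins2* (2.14, adjusted p = 0.177) and *Iapp* (1.48, adjusted p = 0.188) again did not pass. Leaving out v1 E14.5 batch 2 (the batch of v1 E17.5), Fev-Cre or v2 E17.5 kept the direction for *Ins1* but ended its call (log2 changes of 2.47, 2.39 and 2.25, adjusted p of 0.0633, 0.150 and 0.620), as did dropping the kit term (adjusted p = 0.545). The stage change did not differ detectably between kits for any member (v1 minus v2 of -0.66 for *Ins1*, 0.07 for *Ins2* and -0.22 for *Iapp*, SE 0.93 to 1.18, adjusted p of 1 in edgeR for each).

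Among genes that act with the hormones, 2 of 13 granule genes, 1 of 8 genes of glucose sensing and secretion and 3 of 8 other islet hormones were called with *Ins1*, where 0.449% of all genes were called higher and 0.112% lower. The test recovered 17% of simulated 2-fold changes, so a gene that did not pass may still have changed. *Slc30a8*, the zinc transporter of insulin granules, was higher at E17.5 by 2.58 (SE 0.29, adjusted p = 0.00414, edgeR): it had 143 and 123 CPM in the v1 E14.5 batches, 608 at v1 E17.5, 152 at v2 E14.5, 88.8 in Fev-Cre and 455 at v2 E17.5. *Scg2*, a granin of secretory granules, was the other of 13 hormone-processing and granule genes to pass (1.45, SE 0.26, adjusted p = 0.0308, edgeR), and the list's median change was 0.99 against -0.03 over all genes. Of its other 11 members, 8 had values above 0 that did not pass, among them *Pcsk1n* (1.18), *Scg3* (0.97) and the prohormone convertases *Pcsk2* (1.00) and *Pcsk1* (0.99). *Ucn3*, a hormone secreted by maturing beta cells, was the only one of 8 tested genes of glucose sensing and secretion to pass (2.03, SE 0.39, adjusted p = 0.0464, edgeR). Of 15 tested regulators of the insulin genes, none passed. The lowest value was -1.45 for *Pax4*, which acts early in the beta lineage (list median 0.03, edgeR), and *Mafa*, the MAF factor of mature beta cells, was too low to test. None of 3 tested receptor genes for insulin and amylin passed. Among 8 other islet hormones, *Sst* and *Ghrl* were called higher (4.56 and 4.19) and *Cck* lower (-3.20). *Sst* had 7.24 to 39.5 CPM in beta-like cells at E14.5, 598 at v1 E17.5 and 289 at v2 E17.5. *Ghrl* had 0 to 23.1 CPM at E14.5, 2.59 at v1 E17.5 and 277 at v2 E17.5, so v2 E17.5 alone stood above the E14.5 libraries. The share of these UMIs that came from free RNA or from admixed delta and epsilon cells was not tested.

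Outside beta-like cells, the insulin genes and *Iapp* parted. *Ins1* in alpha-like cells, named by markers other than *Gcg*, was 32.6 CPM at v1 E12.5, 609 and 503 CPM in the v1 E14.5 batches and 43.7 CPM at v1 E17.5. In v2 libraries it was 140 CPM at E12.5, 1174 at E14.5, 208 in Fev-Cre and 2145 at E17.5. Both E12.5 values were below all those of E14.5. In Fev-Cre, however, mesenchymal cells held 160.3 CPM of *Ins1*, near the alpha-like level, against 0.868 CPM at v2 E12.5. The order of these stages was thus not shown above free RNA. The alpha-like values spread widely, and no order from E14.5 to E17.5 held across kits.
*Ins2* in alpha-like cells was 102 CPM at v1 E12.5, 472 and 301 CPM in the v1 E14.5 batches and 62.5 CPM at v1 E17.5. With v2 it was 179, 3055, 499 (Fev-Cre) and 2369 CPM. The Fev-Cre value was near the 430.5 CPM of *Ins2* in mesenchymal cells of that library. *Iapp* was far more even, with 1690 and 1974 CPM at E12.5 (v1 and v2), 4984 to 7743 CPM in the 4 libraries at E14.5 and 6121 and 10080 CPM at E17.5 (v1 and v2). All E12.5 values of *Iapp* were below all E14.5 values.

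Compared within libraries over 12 sums, beta-like cells exceeded alpha-like cells by 6.04 (SE 0.50, adjusted p = 5.94e-08) for *Ins1* and 7.39 (SE 0.45, adjusted p = 1.22e-09) for *Ins2* on the log2 scale, in edgeR with library as a block. *Iapp* was higher by 1.69 (SE 0.18, adjusted p = 1.18e-06, edgeR). Each member was higher in beta-like cells of 6 of 6 libraries, and all 3 were called where 4.67% of 9196 genes were called higher and 4.68% lower. The stage change itself was larger in beta-like than in alpha-like cells for each member: by 2.63 (SE 0.56, adjusted p = 0.00971) for *Ins1*, 2.11 (SE 0.52, adjusted p = 0.0327) for *Ins2* and 1.01 (SE 0.23, adjusted p = 0.0196) for *Iapp*, by an interaction term in edgeR. These sizes rested on single libraries and on the clustering: for *Ins1* and *Ins2* they were 4.96 and 4.75 without v2 E17.5, 1.57 and 0.65 without v1 E17.5, and 0.65 and 0.29 at a finer clustering, positive in each case (all log2). With free RNA subtracted from the hormone genes, *Ins1* and *Ins2* did not pass (edgeR, adjusted p of 0.144 and 0.289). Without v2 E14.5 none of the 3 passed (edgeR, adjusted p of 0.108, 0.271 and 0.126). *Ins2* did not pass without v1 E17.5 or Fev-Cre either (adjusted p of 0.132 and 0.0535), nor *Iapp* without v2 E17.5 or v1 E14.5 batch 1 (adjusted p of 0.735 and 0.0753).
The make-up of the alpha-like class moved with stage as well. *Ghrl*, the ghrelin gene of epsilon cells, was 1042, 5634, 6408 and 166 CPM in alpha-like cells at E14.5 (v1 batch 1, v1 batch 2, v2, Fev-Cre), and 30190 and 10990 CPM at E17.5 (v1 and v2). At v1 E17.5, 15 of 48 alpha-like cells had *Gcg* above 1% of UMIs, against 305 of 429 at v2 E17.5. The part of this in the stage comparison with alpha-like cells was not tested.

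Delta-like cells, which make somatostatin, carried *Iapp* with far less insulin than beta-like cells. *Iapp* was 7123 CPM at v2 E14.5 and 6409 CPM in Fev-Cre, and 15370 and 18520 CPM at v1 and v2 E17.5, second to beta-like cells in each of these libraries. In Fev-Cre they were nearer to alpha-like (5797 CPM) than to beta-like cells (23490 CPM). *Ins1* in the same delta-like cells was 47.9, 205, 464 and 747 CPM, and *Ins2* was 89.04, 423, 2412 and 1396 CPM, where the mesenchymal level of *Ins2* was 115, 430, 51.6 and 900 CPM. At E17.5, 2 of 39 (v1) and 5 of 162 (v2) delta-like cells had insulin above 1% of UMIs. Epsilon-like cells, which make ghrelin, held 108 CPM of *Iapp* at v2 E14.5, 1007 in Fev-Cre and 165 at v2 E17.5, with *Ins1* at 34.8, 157 and 326 CPM. Within each library, the counting intervals of neighbouring classes in the order beta-like, delta-like, alpha-like, Fev+-like did not overlap for *Iapp* at v1 E17.5, v2 E14.5 and v2 E17.5. For *Ins1* at v2 E14.5, Fev+-like (1175 CPM) and alpha-like cells (1174 CPM) overlapped.

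Genes with the pattern most like each member over the 98 sums, among 13089 genes, were named by Pearson's r of log levels, again as a description. For *Ins1* they were *Acvr1c*, a receptor of the activin family (r 0.83), *G6pc2*, the islet glucose-6-phosphatase subunit (r 0.81), *Prss53*, *Tmem215* and *Slc30a8* (each r 0.78). For *Ins2*, *Acvr1c* (r 0.81) again came first, and *Prss53*, *G6pc2* and *Tmem215* (each r 0.77) and *Igsf1* (r 0.74) followed. For *Iapp* they were *Pcsk2*, a convertase that cuts prohormones (r 0.93), *Scg2* (r 0.91), *Resp18*, *Tmem27* and *Sez6l2* (each r 0.89). The highest level of all 5 genes nearest to *Ins1* was in beta-like cells. Those nearest to *Iapp* peaked in delta-like (*Pcsk2*, *Scg2*), alpha-like (*Resp18*, *Tmem27*) and beta-like cells (*Sez6l2*). *G6pc2* was among the markers that named beta-like cells and *Tmem27* among those of alpha-like cells. Their peaks there, and in part their r values, thus followed from the naming.

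**Figure D2:**
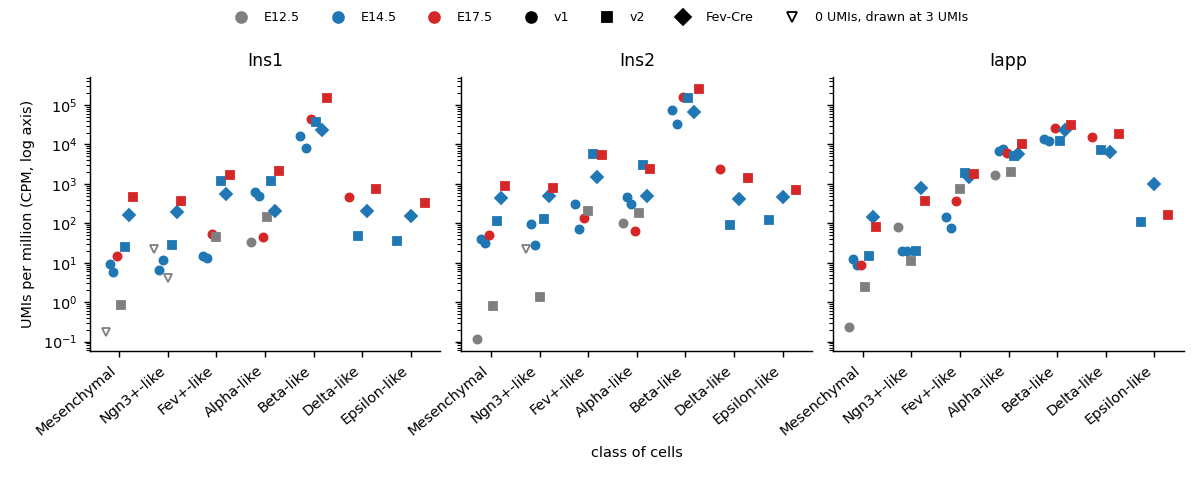
CPM (log axis) of each gene by class of cells, 1 point per library with at least 20 cells of that class, coloured by stage and shaped by kit; open triangles stand for 0 UMIs drawn at 3 UMIs. Beta-like points stand apart for *Ins1* and *Ins2*, whereas alpha-like and delta-like points come close to beta-like points for *Iapp*.

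UMIs of the members also occurred in cells that do not make them, and mesenchymal cells gave the measure of this free RNA. *Ins2* was at 0.118 and 0.820 CPM in mesenchymal cells at E12.5 (v1 and v2), 30.8 to 51.6 CPM in the other v1 libraries, 115 CPM at v2 E14.5, 430 CPM in Fev-Cre and 900 CPM at v2 E17.5. At v2 E17.5 the measure depended on the cells taken: the 316 of 985 mesenchymal cells without an epithelial marker UMI held 295, 590 and 52.2 CPM of *Ins1*, *Ins2* and *Iapp*, against 467, 900 and 81.2 CPM in all of them. The median over the 8 libraries was 46.0 CPM for *Ins2*, 12.04 for *Ins1* and 10.5 for *Iapp*. At v2 E17.5, 98.98% of mesenchymal cells had a UMI of *Ins2* (median 10310 UMIs per cell), against 99.9% of beta-like cells (median 20440). In Fev-Cre the shares were 92.5% and 100%, with medians of 6206 and 8744 UMIs, so a UMI of *Ins2* did not mark an insulin-producing cell there. At v2 E14.5 43.6% of mesenchymal cells had one (median 4808 UMIs).
Hormone UMIs of mesenchymal cells followed the proportions of the endocrine cells of their library closely in some libraries and loosely in others. At v1 E17.5, among the closest, *Ins1*, *Ins2*, *Iapp* and *Gcg* made up 17.1%, 60.7%, 10.4% and 11.8% of the UMIs of these 4 genes in mesenchymal cells and 16.6%, 60.4%, 12.9% and 10.1% in endocrine cells. In Fev-Cre *Gcg* was 24.8% in mesenchymal and 41.2% in endocrine cells, and at v2 E17.5 it was 2.49% and 5.46%. In v1 E14.5 batch 2 *Ins2* was 39.4% and 28.97%, and at v2 E12.5 *Ins1* was 1.68% and 0.560%. Insulin in v1 E17.5 alpha-like cells (62.5 CPM of *Ins2*) was near the mesenchymal 51.6 CPM, while at v2 E14.5 it was far above it (3055 against 115 CPM).

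On the path from progenitor to hormone-producing cell, *Iapp* in Fev+-like cells stood at a larger part of its beta-like level than the insulin genes did. In Ngn3+-like cells the insulin genes were close to the mesenchymal level: *Ins1* was 28.8 CPM against 24.9 CPM at v2 E14.5, 196 against 160 CPM in Fev-Cre and 372 against 467 CPM at v2 E17.5 (295 CPM in mesenchymal cells without an epithelial marker UMI). *Ins2* in v1 E14.5 batch 1 was an exception, with 95.02 against 40.5 CPM. *Iapp* in Ngn3+-like cells was 19.54 to 20.04 CPM in the Swiss Webster libraries at E14.5 and 805 CPM in Fev-Cre, against 8.81 to 14.46 and 146 CPM in mesenchymal cells, and 364 against 81.2 CPM at v2 E17.5. The Ngn3+-like cells of Fev-Cre also held *Gcg*, at 7296 CPM against 243 CPM in mesenchymal cells, and 16 of the 257 cells exceeded 1% of UMIs for it. Their 11.03 *Iapp* UMIs per 100 of *Gcg* were close to the 10.9 of alpha-like cells in that library. In Fev+-like cells, *Ins1* was 14.48 and 13.27 CPM in the v1 E14.5 batches and 54.6 CPM at v1 E17.5, but 1175 CPM at v2 E14.5, 549 in Fev-Cre and 1715 at v2 E17.5.
*Ins2* in Fev+-like cells was 304, 70.8 and 139 CPM in the same v1 libraries and 5715, 1511 and 5311 CPM in the v2 ones. *Iapp* was 145, 75.2 and 361 CPM with v1 and 1880, 1503 and 1780 CPM with v2. At v2 E12.5, the 114 Fev+-like cells held 45.1, 200 and 750 CPM of *Ins1*, *Ins2* and *Iapp*, beside 13060 CPM of *Gcg*, and 30 of them exceeded 1% of UMIs for *Gcg*. *Gcg* in Fev+-like cells was 4336 CPM in Fev-Cre, 848 CPM at v2 E14.5, 292 CPM at v2 E17.5 and 24.1 to 31.0 CPM with v1.
Few Fev+-like cells carried most of the insulin. The 5 richest held 52.7%, 52.97% and 65.1% of the insulin UMIs at v2 E14.5, in Fev-Cre and at v2 E17.5. The median Fev+-like cell had *Ins2* at 0.0209%, 0.0425% and 0.0811% of its UMIs in these libraries, and the median mesenchymal cell at 0%, 0.0413% and 0.0528%. In Fev-Cre the median Fev+-like cell was thus near the free RNA level, and the class level of insulin there came from a minority of cells. At E14.5 and E17.5 all members were higher with v2 in these cells. With v1 the class joined 37, 44 and 20 Fev+/Pax4+-like cells (E14.5 batches 1 and 2, E17.5) to 41, 61 and 64 Fev+/Chgb+-like cells. With v2 it held Fev+/Chgb+-like cells only. Fev+/Pax4+-like cells had 11.05 to 21.41 CPM of *Iapp* at E14.5 and 19.18 CPM at E17.5. Kit, depth, sorting and this make-up differed together and cannot be told apart.

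Over 12 sums of 6 libraries, Fev+-like cells exceeded Ngn3+-like cells by 2.62 for *Ins1* (SE 0.53, adjusted p = 0.00272), 2.88 for *Ins2* (SE 0.54, adjusted p = 0.00178) and 3.16 for *Iapp* (SE 0.69, adjusted p = 0.00469) on the log2 scale, in edgeR with library as a block. All 3 were called where 8.41% of 10300 genes were called higher and 7.42% lower. Since *Ins1* and *Ins2* in Ngn3+-like cells were near the mesenchymal level, the size of their difference above free RNA could not be measured. Without the block, none of the 3 passed (adjusted p of 0.248, 0.126 and 0.203).

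To set the members beside each other, each level in Fev+-like cells was expressed as percent of the beta-like level of the same library. *Iapp* stood at 1.03%, 0.610%, 1.40%, 14.9%, 6.40% and 5.61% (v1 E14.5 batches 1 and 2, v1 E17.5, v2 E14.5, Fev-Cre, v2 E17.5). *Ins1* stood at 0.0907%, 0.167%, 0.123%, 3.14%, 2.29% and 1.17% in the same order, and *Ins2* at 0.399%, 0.208%, 0.0872%, 3.72%, 2.30% and 2.12%. *Iapp* was ahead in every library. The mean difference was 2.48 log2 units (SD 0.85, n = 6) from *Ins1* and 1.97 (SD 1.03, n = 6) from *Ins2*, positive in 6 of 6 libraries for each (exact sign-flip permutation test, two-sided p = 0.0312, the smallest that 6 libraries allow; adjusted p = 0.0469 over 3 pairs). Without cells with *Gcg* above 1% of UMIs the differences were 2.45 and 1.96, again in 6 of 6 libraries. With Fev+/Chgb+-like cells alone they were 2.97 and 2.15, also in 6 of 6. *Ins1* and *Ins2* differed by -0.51 (SD 0.91, n = 6, exact permutation p = 0.219). With the hormone genes used in clustering, *Iapp* led *Ins1* by 1.67 and *Ins2* by 1.07 in the mean, in 5 of 6 libraries (exact permutation, adjusted p = 0.0938). At a finer clustering it led by 1.45 and 0.80, also in 5 of 6 libraries (exact permutation, adjusted p = 0.0938 for each), so the order depended in part on how Fev+-like cells were delimited. At E14.5, *Iapp* was also at 4984 to 7743 CPM in alpha-like and 6409 to 7123 CPM in delta-like cells. Insulin there was far below the beta-like level. The part of Fev+-like cells bound for those classes in the lead of *Iapp* was not tested.

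Cells of the E14.5 libraries were also laid in 8 bins along a diffusion order from Ngn3+-like through Fev+-like to beta-like cells, built without the members. *Iapp* first reached 50% of its highest bin in bin 6, 7, 6 and 6 (v1 batch 1, v1 batch 2, v2, Fev-Cre). *Ins1* did so in bin 7, 8, 7 and 7, and *Ins2* in bin 7, 8, 8 and 7. At this threshold *Iapp* was 1 bin or more ahead in each of the 4 libraries, although in v1 batch 1 *Ins1* had already reached 47.1% of its highest bin in bin 6. In v1 batch 2 the crossing of 50% in bin 7 rested on 1 cell rich in *Gcg* and insulin. Without cells with *Gcg* above 1% of UMIs (a setting added after the data were seen), *Iapp* there fell from 11190 to 5947 CPM. All 3 genes then first reached 50% in bin 8. In bin 7 *Iapp* was then at 31.6% of its highest bin, *Ins1* at 3.01% and *Ins2* at 3.38%. In the other 3 libraries *Iapp* stayed 1 or 2 bins ahead without such cells. At 10% of the highest bin no order was clear. All 3 genes reached it in bin 6 in v1 batch 1 and in Fev-Cre. In v1 batch 2 *Iapp* and *Ins1* did so in bin 7 and *Ins2* in bin 8. Without cells with *Gcg* above 1% of UMIs, *Iapp* there did so in bin 7 and both insulin genes in bin 8. At v2 E14.5 *Iapp* reached 10% in bin 3 (10.97%), where *Ins1* was at 9.95% and *Ins2* at 7.15%. Without cells rich in *Gcg*, *Ins1* reached it there too (10.06%). Of the cells in that bin 84.15% were Ngn3+-like, yet it held 14820 CPM of *Ins2*, against 127.5 CPM in the Ngn3+-like class. In bin 5 of v1 batch 1, *Ins2* (8.49%) and *Ins1* (6.36%) were nearer their highest bin than *Iapp* (4.41%). In v2 E17.5, beta-like cells came before Fev+-like cells in this order, and it was not used there.

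**Figure D3:**
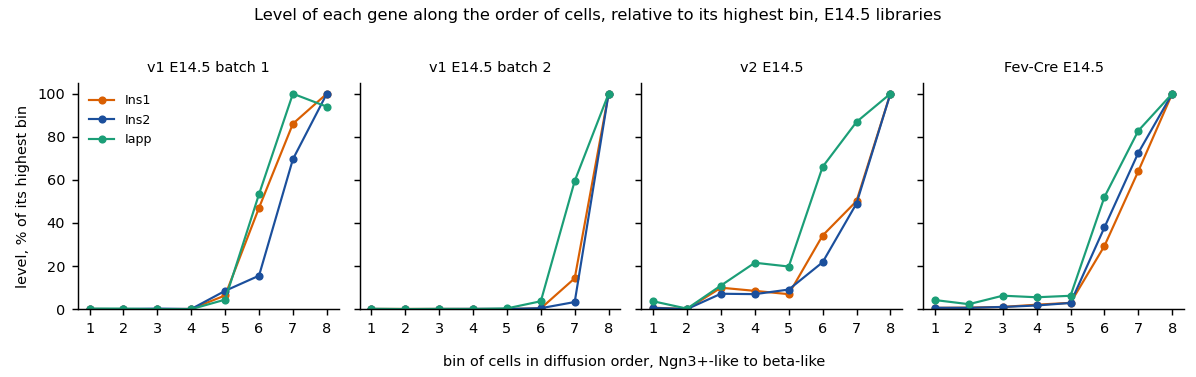
Level of each gene in 8 bins of cells ordered from Ngn3+-like to beta-like, as percent of the gene's highest bin, in the E14.5 libraries. *Iapp* passes 50% 1 or 2 bins before *Ins2*, in v1 batch 2 through 1 cell rich in *Gcg*, and the insulin genes stay under 10% up to bin 5.

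Single Fev+-like cells held the members in several combinations. Each cell was thinned to 2000 UMIs, and a gene was scored present at 2 or more. Of 235 Fev+-like cells at v2 E14.5, 66.8% had none of the 3 genes, 9.36% *Iapp* alone, 7.66% *Ins2* alone, 6.81% *Ins2* with *Iapp* and 7.23% all 3, while no cell had *Ins1* alone. The corresponding background in 894 mesenchymal cells was 2.35% for *Ins2* alone and 0.112% for *Iapp* alone. Before thinning, 23.0% of these Fev+-like cells had *Iapp* at 0.1% of their UMIs or more, 20% *Ins2* and 9.36% *Ins1*. At v2 E14.5, both cells with *Iapp* but no insulin and cells with *Ins2* but no *Iapp* were thus more frequent than in mesenchymal cells. In Fev-Cre and at v2 E17.5, *Ins2* alone was in 18.5% and 26.7% of Fev+-like cells, against 20.7% and 27.3% of mesenchymal cells. *Ins1* alone was in 2.74% and 5.34%, against 3.26% and 7.51%. *Iapp* alone was in 13.7% and 7.77%, against 2.47% and 0.203%. In the 3 v1 libraries with Fev+-like cells, 90.3% to 95.2% had none of the genes.

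The share of *Ins1* among insulin UMIs in beta-like cells was lowest at E14.5 with v1 and highest at E17.5 with v2. It was 17.3%, 19.0% and 21.8% in v1 (E14.5 batches 1 and 2, E17.5), 19.6% at v2 E14.5, 26.8% in Fev-Cre and 37.1% at v2 E17.5. Exact binomial 95% intervals, which cover counting error only, were 16.8% to 17.9% in the smallest library and 37.0% to 37.1% in the largest. The mean was 29.4% (SD 10.8, n = 2) at E17.5 and 20.7% (SD 4.17, n = 4) at E14.5. The difference was 8.76 percentage points (exact permutation p = 0.267), and so few libraries do not allow a small p in this test. The E14.5 value of Fev-Cre lay between the E17.5 values, and the other 3 at E14.5 were below both. The size of the difference rested on single libraries: without v2 E17.5 the difference was 1.13 points, and without v1 E17.5 it was 16.4 points.
Single beta-like cells varied far more than counting allows. The SD of the share across cells with at least 20 insulin UMIs was 16.4 to 23.1 percentage points per library, where binomial sampling alone would give 1.72 to 4.12. At v1 E17.5 the 10th percentile of 63 cells was 0.178% and the 90th was 39.9%, so some beta-like cells held almost only *Ins2*. Among beta-like cells with unequal counts of *Ins1* and *Ins2*, at any insulin content, those with more *Ins1* were 5.56% at v1 E17.5 and 15.1% at v1 E14.5 batch 2. The other libraries lay between. Of all beta-like cells these were 4 of 79 and 8 of 74, with 80 of 710 at v2 E17.5.

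Cells rich in insulin held a higher share of *Ins1* at v2 E17.5 and in Fev-Cre, but not in the other libraries. When beta-like cells were ranked by insulin content and split in 3, the share rose from 31.2% through 36.3% to 38.1% at v2 E17.5. In Fev-Cre it was 21.97%, 22.39% and 28.4%, and at v2 E14.5 it was 19.96%, 20.55% and 19.25%. In v1 E14.5 batch 1 the share went from 28.6% of only 56 insulin UMIs to 19.2% and 16.99%. It was 24.7% and 18.8% in the middle and highest sets of v1 E14.5 batch 2, and 22.5%, 20.1% and 22.3% at v1 E17.5, so no direction held across libraries. These are descriptions of pooled UMIs, and with the spread between cells given above, differences of a few points between sets of 20 to 27 cells carry no weight. In the same split, *Iapp* gained less than insulin. At v2 E17.5 *Iapp* was 2.39% of UMIs in the lowest and 3.37% in the highest set, while insulin went from 12.4% to 52.6%. The ratio of *Iapp* to insulin fell from the lowest to the highest set in all 6 libraries, and since insulin is the divisor and ranks the cells, this is a description only.
In v1 E14.5 batch 2, the lowest set of 25 beta-like cells held 6 insulin UMIs in all (0.00480% of UMIs) but *Iapp* at 0.244%. Some cells with beta cell markers thus had *Iapp* and nearly no insulin.

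Insulin UMIs of alpha-like cells held a larger *Ins1* share than those of beta-like cells, but in most libraries came from few cells. The *Ins1* share was 24.1% (v1) and 43.9% (v2) at E12.5, 56.3%, 62.6%, 27.8% and 29.4% at E14.5 (v1 batch 1, v1 batch 2, v2, Fev-Cre) and 47.5% at v2 E17.5. In the 5 libraries with both classes and at least 20 insulin UMIs in each, beta-like cells were 20.8 percentage points lower, with 0 of 5 libraries the other way (exact sign-flip permutation p = 0.0625, the smallest possible). Without the 5 cells richest in insulin per class and library, a setting added after the data were seen, the difference was 6.14 points, with 1 of 5 the other way (exact permutation p = 0.375). Those 5 cells held 87.8% of the alpha-like insulin UMIs in v1 E14.5 batch 1, where the share went from 56.3% to 10.0% on leaving them out.
In 5 of the 7 libraries with enough alpha-like insulin, 5 cells held more than 50% of it. At v2 E12.5 they held 24.7% and in Fev-Cre 5.13%. In Fev-Cre 635 of 639 alpha-like cells had an insulin UMI, and the class level was near that of free RNA. With free RNA subtracted, beta-like cells were 25.2 points lower than alpha-like cells over 5 libraries (exact sign-flip permutation p = 0.0625). In Fev+-like cells the share was 4.55%, 15.8% and 28.3% with v1, 18.5%, 17.1% and 26.7% in v2 E12.5, v2 E14.5 and Fev-Cre, and 24.4% at v2 E17.5.

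**Figure D4:**
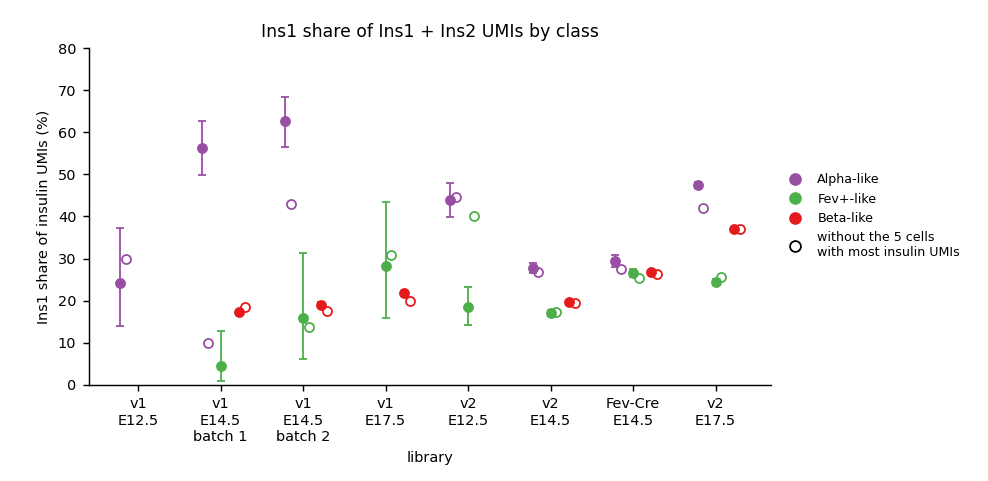
*Ins1* as percent of *Ins1* plus *Ins2* UMIs by library for alpha-like, Fev+-like and beta-like cells, with exact binomial 95% intervals; open points leave out the 5 cells with most insulin UMIs. Beta-like points change little on leaving these cells out, whereas alpha-like points of both v1 E14.5 batches fall by more than 15 percentage points.

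Cells in which insulin and glucagon each exceeded 1% of UMIs were rare. They numbered 0, 0, 1 and 0 in the v1 libraries (in order of stage, batch 1 before batch 2) and 0, 3, 8 and 15 in v2 E12.5, v2 E14.5, Fev-Cre and v2 E17.5. This made 27 of 8310 endocrine cells (0.325%), beside 1527 cells past 1% for insulin and 1434 for *Gcg*. Among 17841 mesenchymal cells there was none; in the smallest such library, 894 cells, a count of 0 allows a share of up to 0.336%. In v2 E17.5 the double cells were 0.769% of endocrine cells (exact binomial 95% interval 0.431% to 1.27%), the highest observed share of any library. The v1 libraries held too few cells to rank, as the upper limits of their intervals ran from 1.08% to 3.05%.
Most lay on the alpha side. In v2 E17.5, 12 were alpha-like and 3 beta-like; at v2 E14.5 all 3 were alpha-like; the 8 of Fev-Cre were in unnamed clusters, and the 1 of v1 E14.5 batch 2 was beta-like. The 15 cells of v2 E17.5 together held 33490 CPM of *Ins1*, 45030 of *Ins2*, 19190 of *Iapp* and 73920 of *Gcg*. The beta cell factor *Nkx6-1* was 94.2 CPM in them, between alpha-like (41.3) and beta-like cells (169). In the 8 Fev-Cre cells *Nkx6-1* was 186 CPM, between the beta-like (504 CPM) and alpha-like values (103 CPM).
Their median depth was 10940 UMIs at v2 E14.5, above the medians of alpha-like (4963) and beta-like cells (6255) and near their sum. In Fev-Cre it was 10240 (against 8022 and 8744), and the cell of v1 E14.5 batch 2 held 10920 (against 4647 and 5404). At v2 E17.5 it was 14260, between alpha-like (9958) and beta-like cells (20440). The doublet caller Scrublet marked none of the 27. A further 2 such cells of v2 E17.5 had been set aside for markers of exclusive compartments, and Scrublet marked 1 of them. Whether pairs of cells in a droplet account for them was not tested beyond this. The number was 53 at a threshold of 0.5%, 10 at 2% and 3 at 5%.

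**Figure D5:**
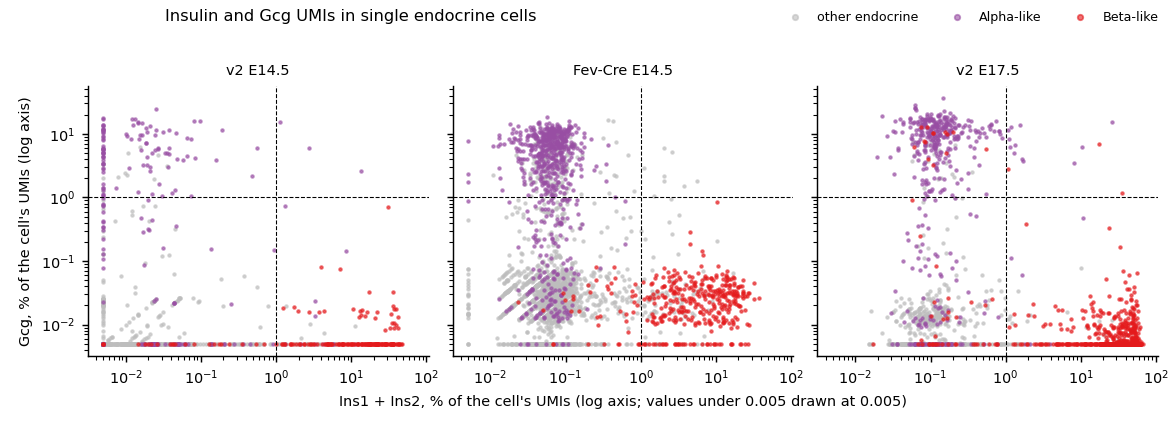
Insulin (*Ins1* plus *Ins2*, x axis) and *Gcg* (y axis) as percent of the UMIs of a cell, both log axes, for single endocrine cells of 3 v2 libraries; values under 0.005% are drawn at 0.005%, and dashed lines mark 1%. The upper right field holds 3, 8 and 15 cells. Of alpha-like cells in the upper left or lower right, most are in the upper left, and of such beta-like cells most are in the lower right. Some alpha-like cells of v2 E14.5 and v2 E17.5 lie in the lower right, and some beta-like cells of v2 E17.5 in the upper left. Most alpha-like cells of v2 E14.5 lie below the *Gcg* line.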

How the data were processed

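The deposited values were UMI counts per gene and cell, made by the authors with Cell Ranger 1.1 (v1) and 2.1 (v2) per the labels, which align to mm10. For the Fev-Cre library the matrix aligned with the reporter sequences was used. The authors ran default settings, and the v1 matrices list 27775 genes, the v2 matrices 27998 and Fev-Cre 28694. Total counts per library set the precision, and intervals cover counting error only.

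Cells with at least 200 genes were kept, as in the study. Genes were not filtered at this step. Cells with markers of exclusive compartments were set aside as doublets; Scrublet was an alternative, but marked too few cells of v1 E12.5 to have worked there. Clustering used Python 3.11.15, scanpy 1.11.5 and leidenalg 0.10.2. The thresholds for names were chosen with the clusters in view, and groups rebuilt in this way can differ from the study's. The 3 members and all gene lists were chosen with earlier results of these data known. The lists hold insulin gene regulators, hormone processing and granule genes, glucose sensing and secretion genes, insulin and amylin receptors, and other islet hormones; text names their called or extreme members, and some single genes are not reported here.

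UMI sums of classes with at least 20 cells were tested in edgeR 4.0.16 (R 4.3.3; TMM, low counts filtered) with Benjamini-Hochberg adjustment; calls needed an adjusted p under 0.05 and 2-fold. Class comparisons kept the library as a block, because both sums came from the same suspension. TMM makes changes relative to other genes. Exact permutation tests were two-sided. On simulated counts, 93% of 4-fold and 17% of 2-fold changes were recovered for the stage comparison, with 12% false calls, 99% and 87% for beta-like against alpha-like, and 96% and 65% for Fev+-like against Ngn3+-like cells. Alternatives covered DESeq2 1.42.0, other scalings and filters, free RNA, doublets, clustering and each library left out. The labels put v1 E12.5, E17.5 and the second E14.5 library in batch 2; batch 1 held E14.5 only, so a batch term equals leaving that library out.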

Additional observations from a re-analysis of the deposited data

Results flagged for a closer look

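Among 18 groups of the 4 E14.5 libraries, 6 held a library far from the other 3 (a gap above 0.829 of the range). This rule marks about 1 in 20 groups of independent, normally distributed values. Levels in CPM need not be so distributed, and the groups share libraries, so that rate sets no expected count here. In 5 of the 6 groups the far library was Fev-Cre. *Iapp* in its beta-like cells was 23490 CPM, against 12340 to 14050 CPM in the others. In its Ngn3+-like cells, *Ins1* was 196.3 CPM against 6.55 to 28.8 CPM, and *Iapp* 805 CPM against 19.54 to 20.04 CPM. In its mesenchymal cells, *Ins1* was 160.3 CPM against 5.87 to 24.9 CPM and *Iapp* 145.9 CPM against 8.81 to 14.46 CPM, so free RNA of the members was high in the same library. That library alone held Fev-Cre;ROSA26mTmG embryos, of lines on a C57BL/6J background, and cells sorted by reporter. Strain, genotype, sorting and pool cannot be told apart there.

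The other group was *Ins2* in alpha-like cells, with 3055 CPM at v2 E14.5 against 300.8 to 498.8 CPM. There 5 of 254 cells held 61.9% of the insulin UMIs.

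The change from E14.5 to E17.5 differed between beta-like and alpha-like cells for all members, by an interaction term in edgeR: 2.63 for *Ins1*, 2.11 for *Ins2* and 1.01 for *Iapp* on the log2 scale. Each was positive in every alternative run, and not every alternative kept each below the threshold.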

How the results depend on the processing

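Over 21 results, 276 values were recomputed under alternatives: 238 kept direction and side of the threshold, 24 no longer passed, 3 newly passed, 11 moved in size and none reversed. The beta-like against alpha-like differences passed for all 3 members in every setting. For the stage change, the members called numbered 1 in the reported fit, 3 with no filter on low counts (*Ins2* 1.85, adjusted p = 0.00429; *Iapp* 1.43, adjusted p = 0.0182), 2 in DESeq2 (*Iapp* 1.44, adjusted p = 1.08e-05), 0 with free RNA subtracted from all genes (*Ins1* 2.81, adjusted p = 0.259), 0 without the kit term (*Ins1* 2.80) and 0 to 1 on leaving out a library (*Ins1* 2.25 to 2.93). Subtracting free RNA from all genes left 3279 of 8010 genes and moved the median of all genes to -0.49. Genes called higher then numbered 0, against 36, 249 with no filter, 55 in DESeq2, 4 without the kit term and 3 without v2 E17.5.

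Without the library block, none of the members passed for Fev+-like against Ngn3+-like cells (*Ins1* 2.34, *Ins2* 2.96, *Iapp* 2.20; 0 called). The lead of *Iapp* was 1.67 over *Ins1* and 1.07 over *Ins2* with the members in clustering and 1.45 and 0.80 at resolution 2, where it no longer passed in either case (exact permutation, adjusted p = 0.0938); leaving out a library gave 2.28 to 2.68 and 1.56 to 2.09, where 5 libraries cannot reach a p below 0.0625. Cells with both hormones numbered 53, 10 and 3 at thresholds of 0.5%, 2% and 5%. The interaction of class and stage was read by adjusted p in edgeR alone, without the 2-fold limit. It no longer passed for *Ins1* and *Ins2* with free RNA subtracted from the hormone genes (adjusted p of 0.144 and 0.289). Nor did it for *Ins2* at clustering resolution 2 (difference of 0.29, adjusted p = 0.260) and with the members in clustering (1.73, adjusted p = 0.292). On leaving out an E14.5 library, no member passed without v2 E14.5, nor *Ins2* without Fev-Cre, nor *Iapp* without v1 E14.5 batch 1. Some that passed were under 2-fold: *Ins1* at resolution 2 (0.65), and *Iapp* with no doublets removed (0.78), at resolution 2 (0.79), with the members in clustering (0.75) and without v1 E14.5 batch 2 (0.76). The causes were not tested. Shallow v1 libraries limit values under about 10 CPM in small classes.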

Other observations

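Endocrine cells without a class name also held the members. At v2 E17.5, 139 such cells, in clusters led by ductal, acinar or red cell genes, had 55790 CPM of *Ins1*, 96620 of *Ins2* and 12450 of *Iapp*, with an *Ins1* share of 36.6%, next to 37.1% in beta-like cells. In Fev-Cre, 792 unnamed cells had 1443, 3254 and 6030 CPM, so *Iapp* exceeded both insulin genes there. At v2 E12.5, before any beta-like cluster was found, 5 of 896 endocrine cells had insulin above 1% of UMIs, and 450 unnamed cells had 82.4 CPM of *Ins1* and 179 of *Ins2* against 0.868 and 0.820 CPM in mesenchymal cells.

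The gene lists were also counted in the class comparisons, leaving out genes used as class markers; the rest still took part in clustering, so these counts are descriptions. In Fev+-like against Ngn3+-like cells, where 8.41% of all genes were called higher and 7.42% lower, 12 of 12 hormone-processing and granule genes were called higher (median 3.28 on the log2 scale, against 0.04 over all genes), as were 5 of 13 insulin gene regulators, 5 of 6 glucose sensing genes, 2 of 4 receptor genes and 4 of 8 other hormones. Called lower were 2 of the regulators and 1 of the other hormones. In beta-like against alpha-like cells, where 4.67% of all genes were called higher and 4.68% lower, the counts called higher were 2 of 13, 4 of 13, 3 of 5, 2 of 4 and 1 of 7 for the same lists in the same order. Called lower were 1 granule gene, 1 regulator and 6 of the 7 other hormones.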
